A study of Mus musculus with 9 samples.

Results

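Brush border peptidases are the membrane enzymes on the luminal face of small-intestinal enterocytes that cut dietary and regulatory peptides into free amino acids and short peptides. Of 9 genes named for this group, 8 had a probe set annotated to that gene symbol alone: Mep1a, Mep1b, Dpp4, Anpep, Enpep, Ace, Tmprss15 and Naaladl1. The ninth, Ggt1, which cleaves the gamma-glutamyl bond of glutathione, had no probe set under that symbol here and has no value below. The 8 genes were chosen by name from 18193 genes with a probe set of their own. They are covered by 13 of 45037 probe sets, and the brightest probe set of a gene stands for it.

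The arrays measured RNA from mucosal scrapings of male C57Bl/6J mice that were 9 weeks old when a high-fat diet replaced standard chow, and were sampled after 2 weeks on it. The small intestine was cut into 3 equal parts, SI1 nearest the stomach, SI2 in the middle and SI3 at the distal end. The fat of HF-PO was palm oil, that of HF-OO olive oil and that of HF-SO safflower oil, in the order of rising P/S value in the labels, so every group shares a high-fat diet. RNA of 6 mice was pooled for each part and diet, which gave 9 arrays, 1 for each combination. Segments were therefore compared over 3 pools, while a diet within a segment is a single pool with no replicate check. A low-fat diet is named in the labels and was not analysed here.

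Peptide digestion at this membrane runs in steps. Enteropeptidase, the product of Tmprss15, is a serine protease of the duodenal surface that converts trypsinogen from the pancreas into trypsin, which then activates the other pancreatic proteases. The peptides they release are trimmed at the brush border by zinc metalloproteases (meprins), aminopeptidases, a dipeptidyl peptidase and a peptidyl dipeptidase, and enterocytes take up the products through peptide and amino acid transporters.

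Signals are MAS5 values on a linear scale, and array medians lay between 94.4 and 105.9 with highest signals between 44534 and 56944. The tissue label was checked against its markers. Enterocyte markers were bright in every segment, with Vil1 at 27567 ± 2736 in SI1 and 32388 ± 1255 in SI3 and Krt20 at 29966 ± 3670 and 29952 ± 1447 (SD, n = 3 pools). The others were less level between SI1 and SI3. Alpi averaged 37115 and 24371, Lct 27469 and 16435, Fabp2 38405 and 47487, and Epcam 18849 and 24996. The summed signal of the 6 enterocyte markers measured lay between 161328 and 195018 in SI1, 168555 and 177887 in SI2, and 167411 and 180747 in SI3. Transcripts of the exocrine pancreas were present in SI1, where 6 markers summed to between 27081 and 34552, against 218 to 402 in SI2 and 260 to 420.5 in SI3. Their part in the results for SI1 was not tested. In scraped mucosa, fewer cells of a type and less RNA per cell cannot be told apart.

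The comparison of segments asked where along the intestine each peptidase gene is expressed. Of the 7 members bright enough to be tested, 6 were higher in SI3 than in SI1 and 1, Ace, was lower. Over all 22519 probe sets tested, 25.0% were higher and 19.2% were lower. The median log2 difference was 0.82 over the 7 members and 0.08 over all probe sets tested. By SI2, 6 of the 7 were higher than in SI1 (8.07% of all probe sets) and 0 lower (6.92%). From SI2 to SI3, 3 rose (10.4%) and 1 fell (10.8%). Over the 3 segments together, all 7 differed by limma's F test, as did 40.7% of all probe sets. A call is an adjusted p under 0.05 from limma, with the diet pool as a block and Benjamini-Hochberg adjustment over all probe sets tested. By mean signal the members fell into 3 patterns: highest at the distal end, a peak in SI2 (Ace) and near the floor beyond SI1 (Tmprss15). For Mep1b, Dpp4 and Anpep, placed in the first, the step from SI2 to SI3 was not called.

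**Figure D1:**
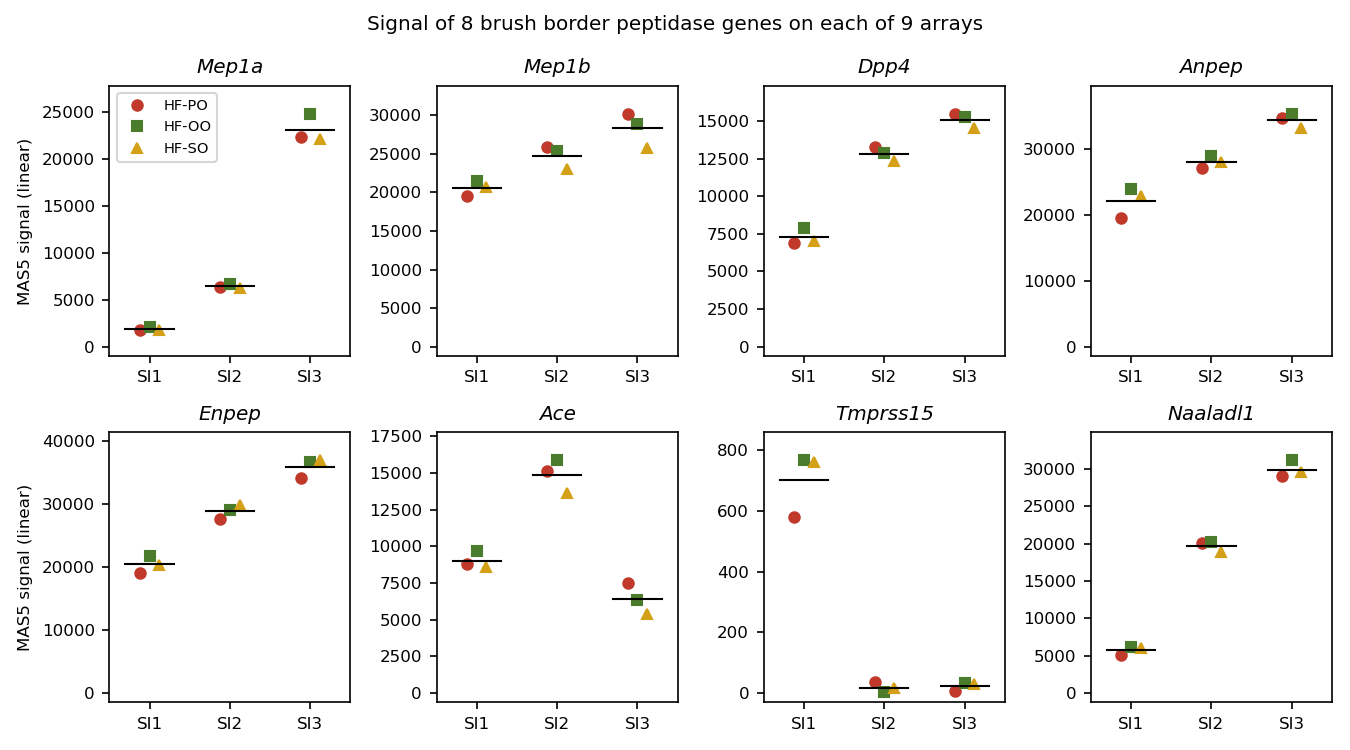
Linear MAS5 signal (y axis, separate scale for each gene) in the 3 segments (x axis); each point is 1 array of RNA pooled from 6 mice, coloured by diet, and the bar is the mean of 3 arrays. Mep1a and Naaladl1 climbed most, Ace was highest in SI2, and Tmprss15 was above 500 in SI1 alone, at no more than 35.0 elsewhere.

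RefSeq promoter windows, 250 bases before to 50 after an annotated start (GRCm38.p6), were used for 6 of the 8 measured members, all but Mep1b and Naaladl1. The windows of 4 genes are printed because they stand for the 3 patterns: Mep1a and Enpep for the distal genes, Ace for the middle peak and Tmprss15 for the proximal end. Capitals mark matches on either strand to the core promoter box TATAAA, to TTTATNG (CDX2), GATAA (GATA factors) or CAAAGTCCA (HNF4).
Mep1a, chr17:43502724-43503023, minus strand: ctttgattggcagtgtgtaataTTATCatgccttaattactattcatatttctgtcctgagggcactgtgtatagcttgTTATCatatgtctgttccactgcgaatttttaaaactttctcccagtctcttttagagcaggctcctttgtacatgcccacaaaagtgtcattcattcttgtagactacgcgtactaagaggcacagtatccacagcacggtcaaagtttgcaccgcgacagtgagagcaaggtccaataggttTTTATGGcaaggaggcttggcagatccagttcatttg
Enpep, chr3:129332700-129332999, minus strand: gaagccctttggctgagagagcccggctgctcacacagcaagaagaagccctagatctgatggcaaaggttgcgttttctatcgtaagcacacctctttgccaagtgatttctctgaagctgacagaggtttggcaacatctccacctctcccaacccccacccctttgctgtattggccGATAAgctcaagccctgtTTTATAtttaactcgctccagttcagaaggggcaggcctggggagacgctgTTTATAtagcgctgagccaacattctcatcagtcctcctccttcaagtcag
Ace, chr11:105967698-105967997, plus strand, the upstream of its 2 listed starts: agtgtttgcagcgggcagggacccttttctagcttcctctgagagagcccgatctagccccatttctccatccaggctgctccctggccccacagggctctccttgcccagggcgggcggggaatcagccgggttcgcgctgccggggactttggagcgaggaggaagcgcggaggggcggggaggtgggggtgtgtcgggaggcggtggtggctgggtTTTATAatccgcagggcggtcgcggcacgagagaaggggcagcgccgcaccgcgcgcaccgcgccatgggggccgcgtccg
Tmprss15, chr16:79091048-79091347, minus strand: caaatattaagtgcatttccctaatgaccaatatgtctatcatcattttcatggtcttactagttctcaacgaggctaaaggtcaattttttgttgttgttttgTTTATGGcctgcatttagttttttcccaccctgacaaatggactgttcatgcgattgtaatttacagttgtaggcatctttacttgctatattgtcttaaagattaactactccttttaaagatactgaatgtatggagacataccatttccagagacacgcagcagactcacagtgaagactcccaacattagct

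The Mep1a window holds GATAA at 2 places on the opposite strand and TTTATGG just after the start. That of Enpep holds TATAAA at 2 places on the opposite strand and GATAA at 1. The printed Ace window has a single match, TATAAA on the opposite strand, and is 69.7% G and C, while the window of its other start has none. Tmprss15 has TTTATNG alone, in a window of 36.3% G and C. Of the windows not printed, that of Dpp4 holds TATAAA overlapping TTTATNG and a separate GATAA, and that of Anpep, with 72.3% G and C, holds none of the 4 motifs. Over all 32851 windows of this length, TATAAA is found in 13.6%, TTTATNG in 10.9%, GATAA in 25.4% and CAAAGTCCA in 0.475%. No printed window holds CAAAGTCCA. A match is only a description of the letters in the window.

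Mep1a encodes the alpha subunit of meprin, a zinc endopeptidase of the astacin family that is released from the membrane unless it is bound to the beta subunit. Its signal in SI1 was 1796 with HF-PO, 2135 with HF-OO and 1745 with HF-SO. In SI2 it was 6340.5, 6722 and 6275, and in SI3 it was 22368, 24817 and 22186, in the same order of diets. All 3 segments were apart, with no overlap between any of the 9 arrays of different segments. The mean rose from 1892 ± 212 to 6446 ± 241 and then to 23124 ± 1470 (SD, n = 3 pools). On the log2(signal + 16) scale the whole rise was 3.60 (SE 0.08, 95% interval 3.41 to 3.80, limma adjusted p = 1.32e-06), a fold of 12.2. Both steps were of similar size, 1.77 from SI1 to SI2 and 1.84 from SI2 to SI3, so that 48.9% ± 2.0 of the rise (SD, n = 3 pools) was made by the middle. Among 22519 probe sets tested it ranked 33 from the highest by that rise.

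Mep1b encodes the beta subunit, which carries the membrane anchor of meprin. The SI1 arrays read 19598 with HF-PO, 21499 with HF-OO and 20717 with HF-SO, and those of SI3 read 30195, 28909 and 25826. SI2 lay between, at 25869, 25439 and 23007. Every SI3 and SI2 array was above every SI1 array, whereas SI2 and SI3 overlapped, since HF-SO in SI3 (25826) was below HF-PO in SI2 (25869). The rise from SI1 to SI3 was 0.46 (SE 0.09, 95% interval 0.24 to 0.67, limma adjusted p = 0.00665), a fold of 1.37. Neither step passed alone, at 0.26 (95% interval 0.05 to 0.48, adjusted p = 0.0958) and 0.19 (-0.02 to 0.41, adjusted p = 0.181). With the intensity trend in limma's variance the first step had an adjusted p = 0.021, and with quantile normalization the second was 0.08. Without the HF-OO pool the whole rise, 0.47, had an adjusted p = 0.0605.

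The subunits of meprin thus differed in how far they rose. Within a pool, the log2 change of Mep1a exceeded that of Mep1b by 1.50 ± 0.16 from SI1 to SI2, by 1.65 ± 0.05 from SI2 to SI3 and by 3.15 ± 0.17 over the whole length (SD, n = 3 pools). The lowest pool over the whole length was HF-PO, at 3.00, and the highest HF-SO, at 3.34. The Mep1a to Mep1b ratio of the arrays did not overlap between any pair of segments. An exact two-sided permutation test of that ratio, which did not keep the arrays of a pool paired, gave p = 0.10 for each pair. That is the smallest p that 3 arrays against 3 can give, so the test could not reach 0.05. Mep1b reached 55.0% of the highest signal of an array and Mep1a 43.6%, and whether bright signals are compressed was not tested.

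Anpep and Enpep encode the main aminopeptidases of the membrane: aminopeptidase N (CD13), which takes neutral residues off the amino end of peptides, and aminopeptidase A, which takes off acidic ones. Anpep read 19441 with HF-PO, 23924 with HF-OO and 22827 with HF-SO in SI1, then 27034, 28835 and 27936 in SI2, and 34581, 35259 and 33171 in SI3. No array of 1 segment overlapped those of another. The rise over the whole length was 0.64 (SE 0.09, 95% interval 0.43 to 0.86, limma adjusted p = 0.00159), a fold of 1.56. The step to SI2 was 0.35 (adjusted p = 0.0475) and that to SI3 0.30 (adjusted p = 0.0597). The first passed so narrowly that it was lost without any 1 of the 3 pools (adjusted p between 0.16 and 0.182), without the filter on low values (0.204), with a pseudocount of 1 (0.0521) and when the HF-PO array of SI1 was dropped (0.128), which was decided on after seeing the data. The second passed with a pseudocount of 64 (0.0455), without that array (0.0455) and with an intensity trend in limma's variance (0.00901). With quantile normalization it was 0.16 (adjusted p = 0.203).

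Enpep read 19016 with HF-PO, 21815 with HF-OO and 20395 with HF-SO in SI1. It stood at 27573, 29015 and 29917 in SI2 and at 34069, 36682 and 36915 in SI3. The segments did not overlap. It rose by 0.82 from SI1 to SI3 (SE 0.08, 95% interval 0.63 to 1.00, limma adjusted p = 0.000309), a fold of 1.76, with 61.1% ± 5.4 of the rise made by SI2 (SD, n = 3 pools). Its steps, 0.50 (adjusted p = 0.00993) and 0.32 (adjusted p = 0.0322), both passed. Both were lost without any 1 of the 3 pools, with adjusted p between 0.079 and 0.0918 for the first and between 0.118 and 0.198 for the second. Without the filter on low values the adjusted p was 0.0875 and 0.167. The second was also lost with quantile normalization, at 0.17 (adjusted p = 0.19). Within a pool the whole rise of Enpep exceeded that of Anpep by 0.17 ± 0.15 (SD, n = 3 pools), and by as little as 0.01 with HF-PO. Enpep reached 70.8% and Anpep 63.6% of the highest signal of an array.

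Dpp4 encodes dipeptidyl peptidase 4 (CD26), which removes dipeptides ending in proline or alanine and also cuts the incretin hormones. Its signal was 6909 with HF-PO, 7904 with HF-OO and 7055 with HF-SO in SI1, then 13277, 12885 and 12324 in SI2 and 15480.0, 15298 and 14521 in SI3, with no overlap between segments. The rise from SI1 to SI3 was 1.05 (SE 0.09, 95% interval 0.85 to 1.25, limma adjusted p = 0.000138), a fold of 2.07. Most of it was made early: the step to SI2 was 0.82 (adjusted p = 0.00215), or 77.4% ± 3.5 of the whole (SD, n = 3 pools). The later step, 0.24 (95% interval 0.03 to 0.44), did not pass (adjusted p = 0.0965), though it did with the intensity trend (0.0205).

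The other 3 probe sets of Dpp4 were higher in SI2 and SI3 than in SI1 as well, by 0.63 to 0.97 and by 0.61 to 1.04. They differed at the later step. For the brighter 2 of them that step was 0.04 and 0.14, neither past the threshold. For the dimmest it was -0.36 (limma adjusted p = 0.0499), from 1688, 1549 and 1466 in SI2 to 1231, 1319 and 1106 in SI3, so this probe set fell where the brightest did not pass. Both probe sets of Mep1a rose alike, the second by 3.76 over the whole length and by 1.91 and 1.85 at the steps.

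**Figure D2:**
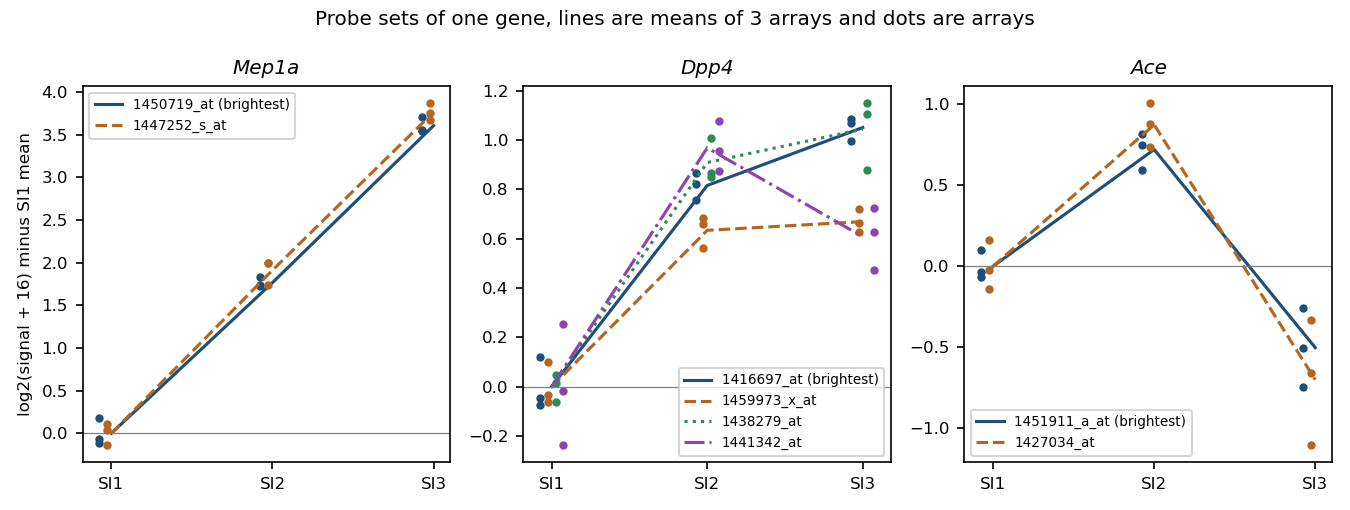
Difference of log2(signal + 16) from the SI1 mean of the same probe set (y axis) in the 3 segments (x axis), for genes with more than 1 probe set; lines join means of 3 arrays and dots are arrays. The probe sets of Mep1a and of Ace run together, while those of Dpp4 part after SI2, where the dimmest (drawn dash-dotted) changed by -0.36.

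Naaladl1 encodes a membrane peptidase related to glutamate carboxypeptidase II. In SI1 it read 5147 with HF-PO, 6177 with HF-OO and 5976 with HF-SO. In SI2 the values were 20022, 20201 and 18854, and in SI3 they were 28994, 31113 and 29578, each segment clear of the others. Its rise over the whole length, 2.37 (SE 0.09, 95% interval 2.16 to 2.59, limma adjusted p = 7.41e-06), a fold of 5.19, was the next after that of Mep1a among the members. The step to SI2 was 1.77, as was that of Mep1a, and within a pool Mep1a minus Naaladl1 was -0.01 ± 0.17 (SD, n = 3 pools). The step to SI3 was 0.60 (adjusted p = 0.00503), below that of Mep1a by 1.24 ± 0.06. Of the whole rise, 74.6% ± 3.5 was made by SI2. The later step had an adjusted p = 0.0724 without the HF-OO pool and 0.0565 without HF-SO.

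Ordered by the rise from SI1 to SI3, the members ran Mep1a, Naaladl1, Dpp4, Enpep, Anpep, Mep1b and Ace. The 95% intervals of Mep1a and Naaladl1 overlapped no other member's. Those of Dpp4, Enpep and Anpep overlapped each other (0.85 to 1.25, 0.63 to 1.00 and 0.43 to 0.86). That of Mep1b (0.24 to 0.67) overlapped those of Enpep and Anpep. Members are read on the same arrays, so their rises were also compared within a pool, with no test. Dpp4 minus Enpep was 0.24 ± 0.07 and Anpep minus Mep1b 0.19 ± 0.05, above 0 in 3 of 3 pools (SD, n = 3 pools). Enpep minus Anpep was 0.17 ± 0.15, close to its spread. The place of Dpp4 depends on the probe set. Its brightest rose by 1.05 and another by 1.04, while those with rises of 0.67 and 0.61 lie below the 0.82 of Enpep.

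**Figure D3:**
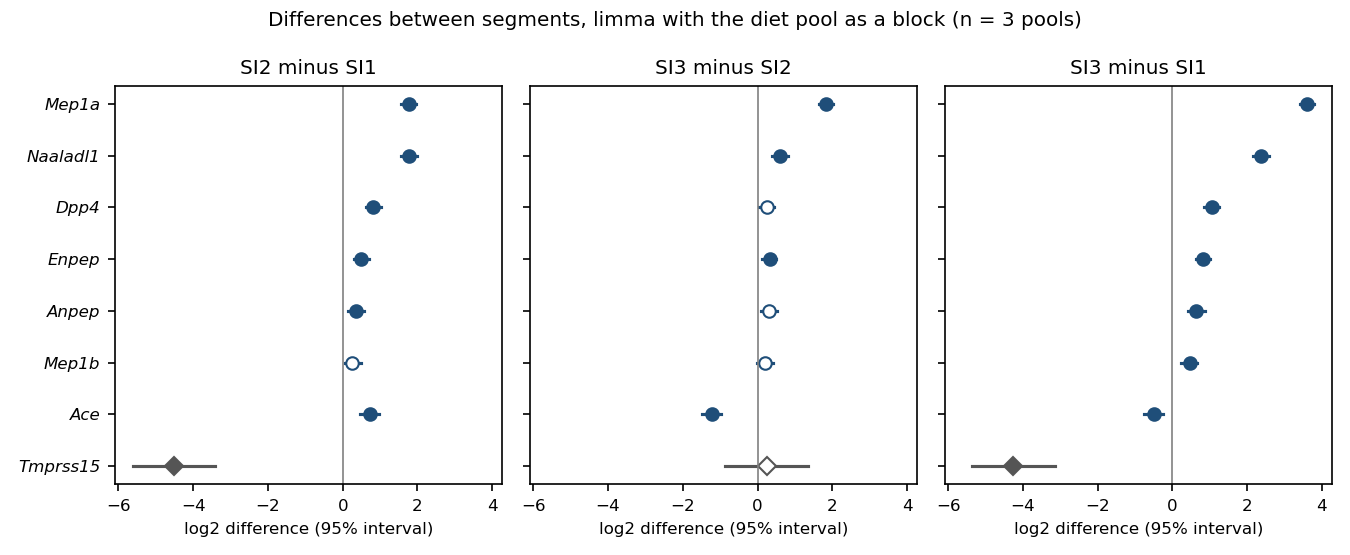
Log2 difference between segments (x axis) with its 95% interval for each member (y axis), from limma over 3 diet pools; filled points have an adjusted p under 0.05. Circles are tested with the filter on low values and the diamond, Tmprss15, in the fit without it. Mep1a stands at 3.60 and Ace at -0.50 for SI3 minus SI1.

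Ace encodes angiotensin-converting enzyme, a zinc peptidyl dipeptidase that removes dipeptides from the carboxyl end of peptides. It was the member that peaked in the middle. Its signal in SI2 was 15157 with HF-PO, 15849 with HF-OO and 13606 with HF-SO. In SI1 it was 8766, 9669 and 8601, and in SI3 it was 7517, 6343 and 5371. Every SI2 array was above every other, and every SI3 array was below every SI1 array. The step up to SI2 was 0.72 (SE 0.11, 95% interval 0.46 to 0.98, limma adjusted p = 0.00834), a fold of 1.65. The step down to SI3 was -1.22 (95% interval -1.48 to -0.97, adjusted p = 0.000648), which ranked 372 from the lowest of 22519 probe sets. SI3 ended below SI1 by -0.50 (95% interval -0.76 to -0.24, adjusted p = 0.00925). The second probe set of Ace gave 0.87, -1.57 and -0.70, all past the threshold.

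The rise of Ace to SI2 had an adjusted p = 0.083 without the HF-OO pool and 0.0651 without HF-SO, and the difference between the ends had 0.0905 and 0.0841. The fall from SI2 to SI3 passed without any 1 of the pools. Without the filter on low values the rise and the difference between the ends had adjusted p = 0.0696 and 0.0534. Ace is also known from endothelium, whose 5 markers summed to between 1180 and 1422 in SI1, 864 and 970 in SI2, and 318 and 383 in SI3. Kdr averaged 369, 267 and 100 along the segments, Emcn 351, 192 and 64.8, and Cdh5 134, 143 and 81.0. Markers this dim in SI3 can pass the filter on low values through the brighter segments alone, so no count of their calls is given. The part of endothelium in the fall of Ace was not tested.

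Tmprss15 was the proximal member. Its signal in SI1 was 579 with HF-PO, 766 with HF-OO and 762 with HF-SO. In SI2 it was 35.0, 2.3 and 16.4, and in SI3 it was 7.7, 32.5 and 28.5. SI1 stood apart on all 3 arrays, and SI2 and SI3 overlapped near the floor of the scale. Since only SI1 is bright, its mean log2 level of 6.55 fell short of 6.80, the filter on low values, and it was not among the 7 members tested. In the fit without that filter, over 45037 probe sets, it was lower by -4.52 in SI2 (SE 0.45, 95% interval -5.62 to -3.41, limma adjusted p = 0.0174) and by -4.26 in SI3 (SE 0.45, adjusted p = 0.00354). In that fit 0.713% of probe sets were lower in SI2 and 7.60% in SI3. The size depends on the pseudocount: -5.78 and -5.09 with 1, -3.24 and -3.14 with 64.

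Several genes for substrates of enteropeptidase and of trypsin shared that end. Of 9 genes for pancreatic protease zymogens past the filter on low values, 6 had an SI3 mean below its level and so passed through the brighter segments. No count or median of their differences is therefore given. Cpa1, a carboxypeptidase of the pancreas, went from 4224 ± 683 in SI1 to 3.2 ± 0.8 in SI2 (SD, n = 3 pools), and Prss2, a trypsinogen, from 4824 ± 570 to 125 ± 60.6. Not all fell so far. Cela1 went from 7542 to 699 ± 61.3 and Ctrc from 183.5 ± 46.6 to 135 ± 18.6. Prss3 was dim throughout, with a mean of at most 44.1. The labels say that pancreatic tissue was removed before scraping.

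Markers of other cells that can carry these peptidases were mostly lower in SI3 than in SI1. Dpp4 is also found on T cells. Markers of T and intraepithelial lymphocytes had sums of 13665 to 17689 in SI1 and 4450 to 6661 in SI3. Cd3e, as low as 50.7 in SI3, can pass the filter on low values through the brighter segments. No count of lymphocyte markers called is therefore given. Anpep is also found on myeloid cells, where 3 of 5 markers were lower and 2 higher, with sums of 9443 to 9729 and 7795 to 9462. Enpep is also found on pericytes, where 4 of 6 markers of pericytes and smooth muscle were lower, with sums of 4897 to 5199 and 3155 to 3517. Sums were thus lower in SI3 for lymphocytes and pericytes. Those of myeloid cells overlapped between the ends, but their markers ran opposite ways. Csf1r, Adgre1 and Cd68 changed by -2.00, -1.29 and -1.13, and Lyz2 and Itgam by 0.70 and 0.65. Csf1r went from 4325 ± 164 to 1072 ± 131 and Lyz2 from 4323 ± 297 to 7030 ± 737 (SD, n = 3 pools). Of the 6 enterocyte markers, 2 were higher in SI3 (Fabp2 and Epcam, by 0.31 and 0.41) and 2 lower (Alpi and Lct, by -0.61 and -0.75). Over all probe sets tested, 25.0% were higher in SI3 than in SI1 and 19.2% lower. The part of any of these cell types in the rises of the members was not tested.

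Other peptidases gave a frame for these changes. Of 11 tested genes for other membrane peptidases, 4 rose and 2 fell from SI1 to SI3, with a median of 0.17. Over all probe sets tested, 25.0% rose and 19.2% fell, with a median of 0.08. Xpnpep2, the membrane aminopeptidase P that acts before proline, rose by 3.94, from 543 ± 9.2 to 8547 ± 85.9 (SD, n = 3 pools), more than any member. Dpep1, a dipeptidase that also completes glutathione breakdown, rose by 1.09. Mme, neprilysin, fell by 1.83, from 13332 ± 1630.0 to 3726 ± 373, nearly all of it after SI2 (-1.65, limma adjusted p = 0.00037). Of 15 genes for peptidases inside the cell, 10 rose and 1 fell, with a median of 0.55. Cndp2, a cytosolic dipeptidase, rose by 1.18, Lap3, leucine aminopeptidase, by 1.45 and Xpnpep1, the cytosolic aminopeptidase P, by 1.03, while Rnpep fell by 0.29.

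Of 11 genes for peptide and amino acid transporters, 5 rose and 3 fell from SI1 to SI3, with a median of 0.14. The shares over all probe sets tested were 25.0% and 19.2%, with a median of 0.08. The glutamate transporter Slc1a1 rose by 3.22. The apical peptide transporter Slc15a1 did not pass in any comparison, with 4544 ± 720 for SI1, 5898 ± 853 for SI2 and 4969 ± 343 for SI3 (SD, n = 3 pools). In 4 of the 11 both steps passed with the shape of Ace, up to SI2 and down to SI3, as they did in 0.679% of all probe sets tested. Slc36a1, a proton-coupled amino acid carrier, rose by 0.70 and then fell by 1.64, Slc7a8 rose by 0.72 and fell by 1.27, and Slc16a10, for aromatic amino acids, rose by 0.70 and fell by 0.69, and Slc3a2, the heavy chain of several exchangers, rose by 0.38 and fell by 0.39. Among 8 tested regulators of enterocyte genes, 3 rose and 2 fell over the whole length (25.0% and 19.2% of all probe sets tested). Cdx1 rose by 1.32, Klf5 by 0.81 and Hnf4a by 0.47, and Gata4 fell by 1.79 and Gata6 by 0.86. Cdx2 did not pass (-0.23).

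**Figure D4:**
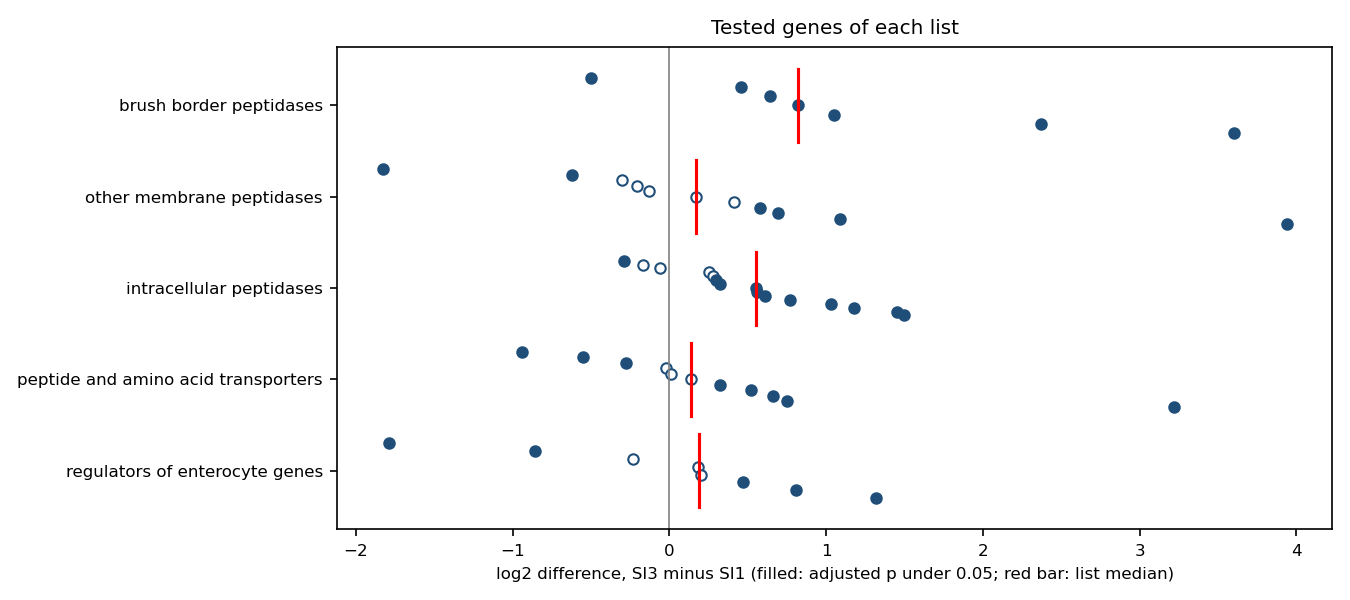
Log2 difference SI3 minus SI1 (x axis) of each tested gene, by list (y axis); filled points have an adjusted p under 0.05 and the red bar is the median of the list. The peptidases of the brush border have a median of 0.82 and those inside the cell 0.55. Genes for pancreatic zymogens are not drawn.

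Over the 9 arrays, the 6 members that rose followed each other, with Pearson r of log2 signal from 0.897 (Enpep with Mep1b) to 0.995 (Naaladl1 with Dpp4). Ace had r between -0.399 and -0.084 with those 6. These values are descriptions over 9 arrays that share 3 pools of mice and a common gradient along the gut. By the same measure among 10976 other genes (10977 for Tmprss15), the most like Mep1a were Gsdme (r = 0.9987), Dpep1 (0.9965) and Tmigd1 (0.9960). The most like Naaladl1 were Pmp22, Plb1 and Osr2 (0.9976 to 0.9971), and the most like Dpp4 were Cubn, Tmem183a and Plb1 (0.9978 to 0.9957). For Anpep they were Rfk, Btf3l4 and Ceacam1 (0.9919 to 0.9897), and for Enpep P2ry2, Clec2h and Vopp1 (0.9962 to 0.9929). Mep1b was most like Mafg, Rbm42 and Adgrd1 (0.9887 to 0.9775). Ace had Tbc1d24, Slc7a8 and Slc23a1 (0.9814 to 0.9793), the vitamin C transporter Slc23a1 averaging 1286, 3875 and 906 along the segments. For Tmprss15, Snx10, Minpp1 and Cpb1 came first (0.9841 to 0.9791).

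The comparison of diets asked whether the kind of fat changes these genes within a segment. With 1 array per diet and segment there is no test. Of the 7 members past the filter, 0 stood 1.5-fold or more above or below both other diets in any segment, where 4.92% of all probe sets tested did so in SI1, 4.72% in SI2 and 5.64% in SI3. The highest over the lowest diet was a fold of 1.10 to 1.23 in SI1, 1.07 to 1.16 in SI2 and 1.06 to 1.40 in SI3. The median fold of the members was 1.15, 1.08 and 1.08 in the 3 segments, against 1.20, 1.19 and 1.20 over all probe sets tested. Tmprss15 was set apart in SI2 and SI3, where its signal was at most 35.0.

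**Figure D5:**
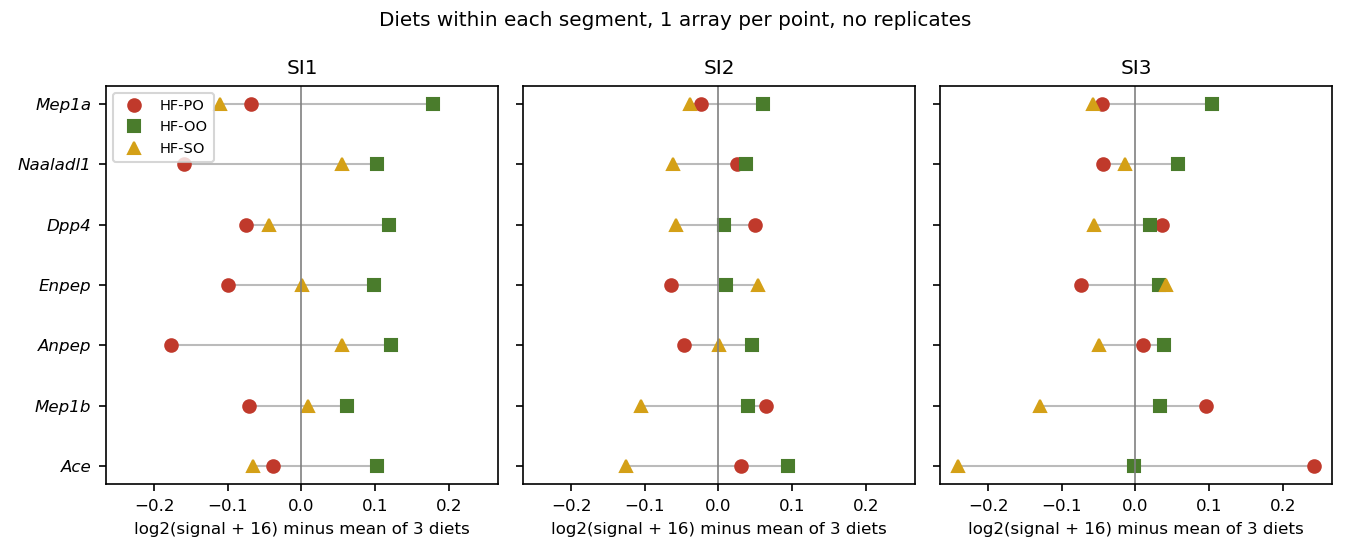
Log2(signal + 16) of each diet minus the mean of the 3 diets (x axis) for the 7 tested members (y axis) in each segment; a point is 1 array, with no replicate. HF-OO is highest for all 7 in SI1, and the widest spread is that of Ace in SI3, a fold of 1.40.

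The widest spread was that of Ace in SI3, at 7517 with HF-PO, 6343 with HF-OO and 5371 with HF-SO, so that HF-PO exceeded HF-SO by a log2 of 0.48 and HF-OO by 0.24. Of all probe sets tested, 19.6% had a spread at least as wide there. The second probe set of Ace kept the order, at 6076, 4841 and 3556, a fold of 1.71 that 5.85% of probe sets reached. In SI1 and SI2 the highest diet was HF-OO for both probe sets. Accordingly the fall of Ace from SI2 to SI3 was -1.01 in the HF-PO pool, -1.32 with HF-OO and -1.34 with HF-SO.

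In SI1, HF-OO was highest for 7 of 7 members and HF-PO lowest for 5, while HF-OO was highest for 30.6% and HF-PO lowest for 34.5% of all probe sets tested. Anpep spread most there, with HF-PO below HF-OO by a log2 of -0.30. Genes on 1 array share that array, so these are not 7 separate observations. The HF-PO array of SI1 also had the highest summed signal of pancreas markers, 34552 against 27081 and 28135, and the lowest of enterocyte markers, 161328 against 181767 and 195018. Their part in the order of diets was not tested. In SI3, HF-SO was lowest for 5 of 7 members and HF-PO for the other two, while HF-SO was lowest for 29.2% and HF-PO for 39.6% of all probe sets tested. An example is Mep1b, at 30195, 28909 and 25826 for HF-PO, HF-OO and HF-SO. Enpep was lowest with HF-PO in all 3 segments, by a log2 of -0.07 to -0.20 from HF-OO, as in 5.22% of all probe sets tested. Mep1a, Anpep and Naaladl1 were highest with HF-OO in all 3, as were 4.25% of all probe sets. Mep1a and Ace were lowest with HF-SO in all 3, as were 3.26%.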

How the data were processed

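The deposited values are linear MAS5 signal intensity, 1 per probe set and array; MAS5 is named in the submitters' processing notes, with no version. The 2% trimmed mean of every array is 500, so the authors' scaling was kept. Of 45101 rows, 64 array controls were left out. Gene names came from the platform annotation. Signals were analysed as log2(signal + 16), and 22519 probe sets with a mean at or above the median of 6.80 were tested.

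The segment model used limma 3.58.1 (R 4.3.3), with segment and diet pool as terms, because all parts of 1 diet were taken from the same 6 mice. The model left 4 residual degrees of freedom. Departures from segment means correlated with r from -0.05 to 0.15 within a pool and -0.13 to 0.05 between pools. P-values rest on how far the segment differences vary between pools, with the variance moderated by limma over all probe sets tested. That variation also holds any diet difference in the segment effect. Spread between single mice is not measured, since RNA of 6 mice was pooled. The model was tested on simulated data. Python 3.11.15 made the tables and plots.

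The members, the gene lists and the rule for genes named (all members, list genes and, per member, the 3 genes with the highest r) were chosen with earlier results of these data known. Promoter windows come from RefSeq, GRCm38.p6. The number of arrays limits the precision.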

Additional observations from a re-analysis of the deposited data

Results flagged for a closer look

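The difference of Tmprss15 between SI3 and SI2 ran in opposite directions in the diet pools: its lowest value was a log2 of -1.11, with HF-PO, and its highest 1.41, with HF-OO. The difference between pools was not tested. All 6 signals behind it lay between 2.3 and 35.0, and in the limma fit without the filter on low values the mean difference was 0.25 (95% interval -0.86 to 1.36, adjusted p = 0.813).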

How the results depend on the processing

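Of 225 alternative values for the 21 segment differences of the 7 tested members, 195 kept their direction and their side of the threshold, 24 lost the call, 5 gained it and 1 reversed. The reversal was Dpp4 from SI2 to SI3, at -0.36 with the dimmest of its 4 probe sets; the cause was not tested. The rise of Mep1a passed at both steps and over the whole length under all settings run. Without the replicate block, the probe sets called were 3823 for SI2 minus SI1, 5136 for SI3 minus SI2, 10178 for SI3 minus SI1 and 9716 over the 3 segments, and the members called were 6, 4, 7 and 7, as with it. Without the filter on low values, which tests more probe sets, the calls were 604 for SI2 minus SI1, 1681 for SI3 minus SI2 and 4666 over the 3 segments, against 3375, 4787 and 9154. Leaving out 1 pool in turn, which leaves fewer arrays, gave 545 to 767, 1329 to 2379, 5596 to 7571 (SI3 minus SI1, 9969 with all pools) and 3710 to 5749 probe sets. The members called were then 3 to 4 of 7 for SI2 minus SI1, 2 to 3 for SI3 minus SI2, 5 to 7 for SI3 minus SI1 and 5 to 6 over the 3 segments. Without the SI1 array of HF-PO, which has the most pancreatic transcript, a setting chosen after the data were seen, 1910 probe sets and 5 members were called for SI2 minus SI1. With a pseudocount of 64 Tmprss15 passed the filter and was called lower in SI2 and in SI3. It passed through its bright SI1 signal alone, so that call is no separate support for the difference.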
